A study of Rattus norvegicus with 6 samples.

Results

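The cadherins and protocadherins of the rat nucleus accumbens shell are described here across nuclei classed by marker genes. Members were all gene symbols of the count tables that start with Pcdh, or with Cdh and a digit, and that held at least 50 UMIs (unique molecular identifiers, each a counted molecule) over the 6 libraries. Of 32883 features, 72 had such a symbol and 66 of these were members. Together they held 1033494 of 238905895 UMIs, or 0.433%. Members were thus chosen by their summed UMI counts, which are given here as a description. Just inside the limit were Pcdhb11 with 64 UMIs, Pcdhb22 with 68, Pcdhb2 with 72 and Cdh17 with 73. Just outside it were Cdh26 with 47, Pcdhb6 with 42 and Pcdhga1 with 30, followed by Pcdhb3 with 19, Pcdhb1 with 4 and Cdh16 with 0.

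Cadherins are calcium-dependent adhesion proteins whose outer domains bind partners on the neighbouring cell, and whose tails link to the actin skeleton through catenins. Classical type I and type II cadherins sort neurons and help to match synaptic partners, Cdh13 is held to the membrane by a lipid anchor and has no tail, and delta protocadherins recruit actin regulators and kinases. The clustered protocadherins of the alpha, beta and gamma families give each neuron a set of surface labels. Those of the alpha and gamma families come from alternative first exons. In the striatum, the projection neurons (spiny neurons) divide into those with the D1 or the D2 dopamine receptor, and they lie among interneurons and glia.

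Nuclei came from the accumbens shell of Long-Evans rats, and the labels name no treatment or altered gene. There were 3 libraries of males and 3 of females, each a pool of 4 animals aged 90 to 100 days. Frozen tissue of 50 mg was taken from slices of 200 µm, and nuclei were barcoded by the 3' chemistry 3.1 of 10x Genomics, followed by 11 rounds of amplification. Replicates are pools, so the p-values measure the spread between pools and not between animals.

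The wording of the labels splits the libraries into set A (male 1 and female 3) and set B (male 2, male 3, female 1 and female 2), and the sources used here do not say what that split means. Set A libraries had 8176 and 14325 kept nuclei and set B libraries 2807 to 3088. Median UMIs per nucleus ranged from 3072.5 to 4822.5, and UMIs per library from 10776831 to 77638150. Too many mitochondrial UMIs removed 1.55% and 2.28% of barcodes in set A and 13.1% to 40.7% in set B. In all, 213 barcode sequences occurred in more than 1 library. The 34362 kept nuclei fell into 29 clusters. Of these, 14 (55.5% of nuclei) took a name from markers, 8 kept a number and 7 (17.8%) were set aside as mixed. Mixed clusters had both neuron and glial markers raised, or glial, vascular or glutamatergic markers beside Pde10a, Gad1 and Gad2. In the latter case those genes summed to at least 0.5 of their level over all nuclei. Members were kept out of the clustering. The class named D1 spiny-like (3896 nuclei) had 3 of its 6 markers raised, none of them among its 10 leading genes. Drd1 had a median of 20.2 CPM (counts per 1000000 UMIs of a class in a library) there against 2.01 in D2 spiny-like nuclei (3552), and Drd2 12.2 against 737. Glutamatergic-like nuclei (2031) came almost all from set A, with 415 and 1614 nuclei there and 2 in 1 library of set B.

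The members held very unequal numbers of UMIs, and most results below concern the 26 members with at least 1000 UMIs in the kept nuclei. The other 40 members stayed under that. Type II cadherins had 13 members, 11 of them with at least 1000 UMIs, and type I cadherins 5 members and 2. Cdh13, Cdh23 and the 7-domain cadherin Cdh17 stood alone in their groups, and Cdh17 fell under 1000. Delta-1 protocadherins had 3 members, all above it, delta-2 protocadherins 5 members and 3, and the other non-clustered protocadherins 3 members and 2. The clustered protocadherins had 34 members and only 3 with at least 1000 UMIs, Pcdha13, Pcdhb10 and Pcdhgc3.

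The type II cadherins were highest in several different classes. Cdh8 was highest in cluster 10, led by Sema3c, Lhx8 and Lhx6, at 929, 1381 and 1707 CPM (lowest, median and highest of the libraries, as in all triplets below). The next class, cluster 20 (led by the activity genes Fosb and Npas4), had a mean of 807, and astrocyte-like nuclei were lowest with 48.6. Cdh8 was thus high in neuron clusters and low in astrocyte-like nuclei. Cdh9, linked to synapse formation, was highest in cluster 20 with 212, 350 and 449 CPM, next to a mean of 259 in glutamatergic-like nuclei. Cdh12 was highest in glutamatergic-like nuclei, with 396 and 397 CPM in their 2 libraries, both of set A. The next class, cluster 10, had a mean of 357 over libraries of both sets, and its highest library, at 508, lay above both of those values. Neither had a top class that stood apart from the next one in all libraries. Cdh11, also known from bone and mesenchyme, was highest in Sst/Npy interneuron-like nuclei with 509, 683 and 863 CPM, and cluster 6 followed with 514. Cdh7 with 147, 182 and 215 CPM and Cdh18 with 418, 468 and 558 CPM were highest in cluster 4, led by Bnc2, Reln and Trpc4. Their next classes were D1 spiny-like nuclei with 128 and Sst/Npy interneuron-like nuclei with 419. Cdh22 was highest in cluster 20 with 10.5, 25.8 and 36.5 CPM.

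Other type II cadherins stood highest in glia. Cdh10 was highest in astrocyte-like nuclei with 925, 1221 and 1356 CPM, next in oligodendrocyte precursor-like (OPC-like) nuclei with 841, and lowest in mature oligodendrocyte-like nuclei with 64.9. Cdh20 had 135, 162 and 175 CPM in OPC-like nuclei against a mean of 158 in astrocyte-like nuclei, so those 2 classes were not apart. Cdh6 was highest in OPC-like nuclei with 52.7, 101 and 130 CPM, followed by mature oligodendrocyte-like nuclei with 77.6. Cdh19, known from glia of peripheral nerves, was highest in mature oligodendrocyte-like nuclei with 226, 304 and 369 CPM. The next class, OPC-like, had 77.4, and microglia-like nuclei had no Cdh19 UMI in 5 libraries.

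The type I cadherins with at least 1000 UMIs, and Cdh13, were highest in astrocyte-like, Sst/Npy interneuron-like and cholinergic-like nuclei. Cdh2 (N-cadherin, the main cadherin of neural tissue) was highest in astrocyte-like nuclei with 418, 537 and 640 CPM, followed by cluster 4 with 485. Cdh4 (R-cadherin) was highest in Sst/Npy interneuron-like nuclei with 70.9, 146 and 172 CPM against 52.2 in cholinergic-like nuclei. Cdh13, which also binds adiponectin, was highest in cholinergic-like nuclei with 1566, 2258 and 2386 CPM in 4 libraries, and OPC-like nuclei followed with 1070. For Cdh4 and Cdh13 the libraries of the top class all lay above those of the next class, and for Cdh2 they overlapped.

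Non-clustered protocadherins had top classes among both neurons and glia. Pcdh15, best known from the tip links of hair cells, was highest in OPC-like nuclei with 1775, 2355 and 2676 CPM, 5.15 times the mean of 448 in Sst/Npy interneuron-like nuclei, with no overlap. Pcdh9 was highest in mature oligodendrocyte-like nuclei with 134, 232 and 237 CPM, followed by cluster 12 with 155. Cluster 12 (1214 nuclei, led by Hpse and Slfn5) was named Drd3 granule-like from 3 of 4 markers, none of them among its 10 leading genes, and is called by its number here. Pcdh7 was highest in cluster 6 with 99.1, 145 and 193 CPM, and the Sst/Npy interneuron-like mean of 145 did not differ from it beyond the spread. The delta-2 member Pcdh17 had 276 and 326 CPM in glutamatergic-like nuclei (2 libraries, both of set A) and 266 in cluster 20. Within set A its mean was 301 there, 311 in spiny-like and 328 in OPC-like nuclei. The glutamatergic-like class was thus not the highest within set A. Pcdh10 had 97 and 106 in cluster 23 (2 libraries, both of set A) and 97.2 in cluster 20. Within set A astrocyte-like nuclei had a mean of 119, above the 101 of cluster 23. Pcdh19, an X-linked gene whose loss is tied to epilepsy, had 215, 276 and 307 CPM in endothelial and mural-like nuclei (3 libraries) and 128 in cluster 9. Pcdh1 had 26.1 and 34.1 CPM in glutamatergic-like nuclei (set A only), and Pcdh20 17.5, 30.1 and 43.8 in OPC-like nuclei. Among the 26 members, the libraries of the top class did not overlap the next class for Cdh10, Cdh13, Pcdh15, Pcdh19, Cdh4 and Cdh19. The top mean was at least 3 times the next for Pcdh15, Cdh19 and Cdh23. The shares of all genes with such top classes were not computed, so this only describes the members.

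**Figure D1:**
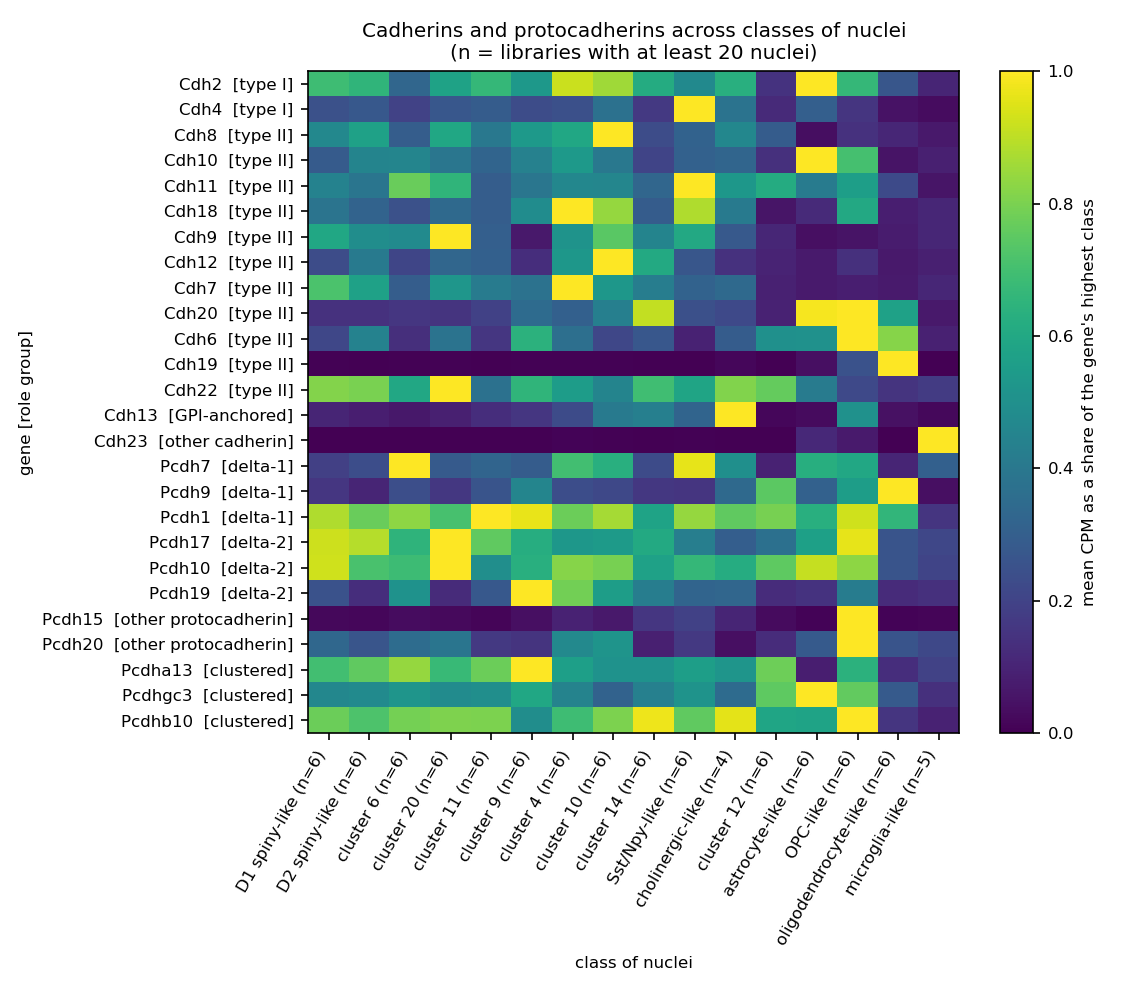
Mean CPM of the 26 members with at least 1000 UMIs in 16 classes (columns), each gene as a share of its own highest class among those shown. Pcdh15 peaks in OPC-like nuclei (median 2355 CPM), Cdh19 in mature oligodendrocyte-like nuclei (median 304 CPM) and Cdh8 in cluster 10 (median 1381 CPM).

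Most UMIs of the alpha and of the gamma family were counted under a single symbol, and those of the beta family were spread over several. Of 120503 UMIs of the alpha family, Pcdha13 held 99.7%. Pcdhgc3 held 83.1% of 31353 UMIs of the gamma family, and Pcdhb10 40.1% of 7001 UMIs of the beta family. Alpha transcripts share their last exons, as do gamma transcripts, and reads at the 3' end cannot tell first exons apart, so the split among alpha and among gamma symbols is uncertain. In addition, 2 features carry the name Pcdha4. Pcdha13 was highest in cluster 9 (led by Chst9 and Grm8) with 604, 741 and 905 CPM against a mean of 679 in cluster 23 (set A only). Pcdhgc3 was highest in astrocyte-like nuclei with 137, 207 and 274 CPM, followed by OPC-like nuclei with 155. Pcdhb10 had 3.98, 14 and 30.1 CPM in OPC-like nuclei and a mean of 14.7 in cluster 14. The alpha count was thus low in astrocyte-like nuclei, with a Pcdha13 median of 44.3 CPM, and the gamma count was highest there.

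D1 and D2 spiny-like nuclei differed in members of both signs, though most differences were small. Of 27 members tested (39 fell to the filter on low counts), 15 passed edgeR's quasi-likelihood test at an adjusted p of 0.05, 9 higher in D1 spiny-like nuclei and 6 lower, where 16.0% of all 11848 genes passed (8.18% higher and 7.84% lower). Only 3 of 25 members with at least 5 CPM had library ranges that did not overlap, against 2.8% of all genes. The median log2 difference was 0.07 over the members tested and -0.02 over all genes. By role, 4 of 10 type II cadherins were higher and 4 lower, and 1 of 5 clustered members was lower.

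Pcdh19 stood at 25.9, 32.9 and 38.8 CPM in D1 spiny-like and 11.6, 16.6 and 22.7 CPM in D2 spiny-like nuclei. It was higher in D1 spiny-like nuclei in each library, with no overlap (log2 difference 0.86, SE 0.10, adjusted p = 8.45e-09). Cdh6, which marks defined circuits in other brain areas, stood at 14.5, 21.2 and 23.7 CPM in D1 spiny-like and 38.3, 40.6 and 50.3 CPM in D2 spiny-like nuclei. It was lower in D1 spiny-like nuclei without overlap (log2 difference -1.07, SE 0.09, adjusted p = 5.5e-12). Cdh10 stood at 288, 349 and 365 CPM and at 469, 540 and 590 CPM. This was the third difference without overlap (log2 difference -0.66, SE 0.03, adjusted p = 1.07e-17).

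The remaining called members overlapped between D1 and D2 spiny-like nuclei. Cdh12 was lower in D1 spiny-like nuclei, with 59.5, 82.2 and 113 CPM against 100, 142 and 199 (log2 difference -0.83, SE 0.06, adjusted p = 4.38e-14). Cdh8 was lower by a small step, with 478, 591 and 831 CPM against 674, 696 and 978 (log2 difference -0.30). Pcdh7, a delta-1 member, and Pcdha13 were each lower in 5 of 6 libraries (log2 differences -0.35 and -0.12). Neither passed in DESeq2, and the call was lost without male 1 for Pcdh7 (adjusted p = 0.0940) and without female 3 for Pcdha13 (adjusted p = 0.0555). Higher in D1 spiny-like nuclei were Pcdh9 (log2 difference 0.46), Pcdh15 (0.38), Pcdh10 (0.37), Cdh9 (0.30) and Cdh7 (0.29), and also Cdh13, Cdh18 and Cdh11. The Pcdh9 difference was 0.20 in set A and 0.96 in set B. Of the members with at least 1000 UMIs, 9 did not pass, and their approximate 95% intervals lay between -0.31 (Cdh4) and 0.67 (Pcdh20). Those of Pcdh17 (-0.02 to 0.12) and Cdh2 (0.01 to 0.13) were the narrowest around small values. With all classes in 1 fit, 7 members passed instead of 15, and Pcdh15, Cdh9 and Cdh8 were among those lost.

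**Figure D2:**
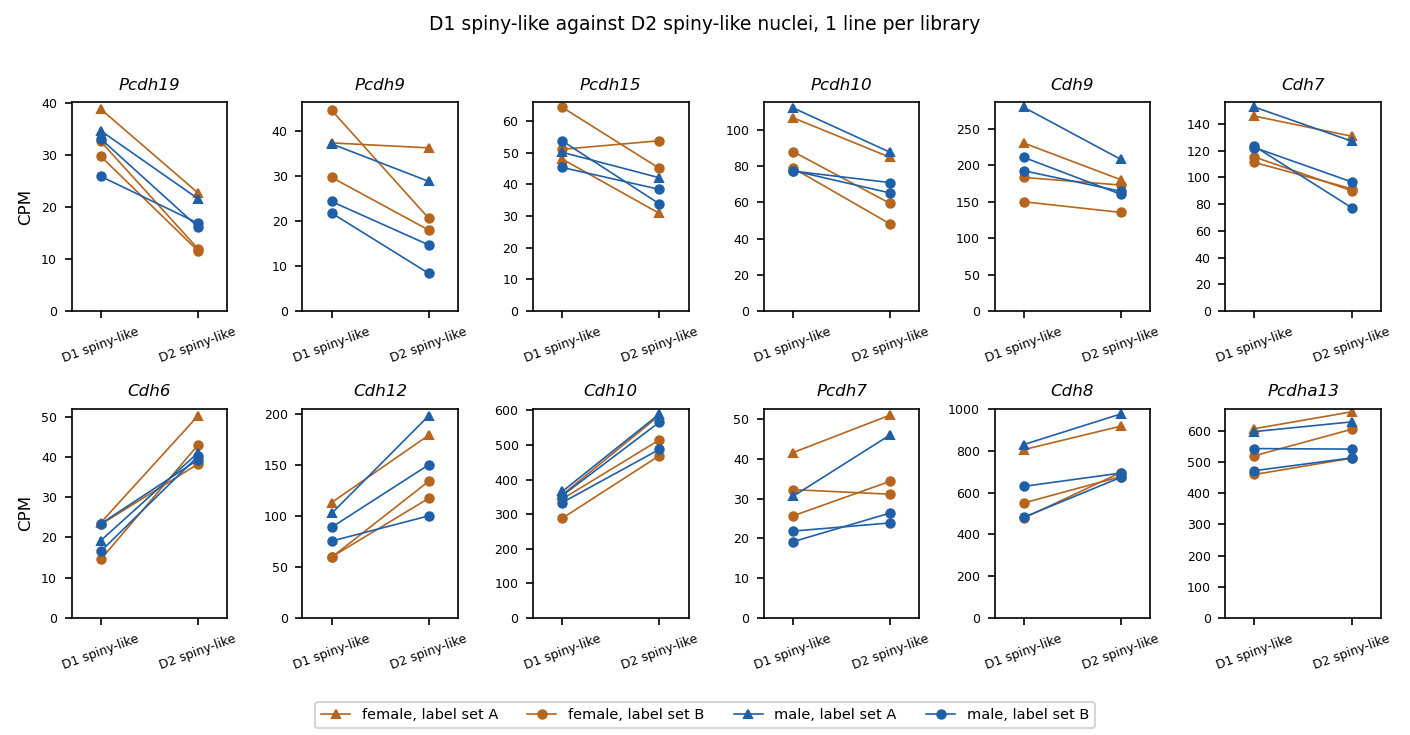
CPM (linear axes from 0, one panel per gene) of the 12 named members in D1 spiny-like and D2 spiny-like nuclei, with a line for each of the 6 libraries. Pcdh19, Cdh6 and Cdh10 separate the classes without overlap, with medians of 32.9 against 16.6, 21.2 against 40.6 and 349 against 540 CPM.

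Cluster 6 (1812 nuclei), led by Mdfic, Eya2 and Plxdc1, was set against the D1 and D2 spiny-like nuclei summed. It had 2 of 5 markers of eccentric spiny neurons, too few for a name. The 7 markers of spiny neurons summed to a median of 6765 CPM in cluster 6 and 6783 in the summed spiny-like nuclei. Of 32 members tested, 20 passed, 8 higher in cluster 6 and 12 lower, beside 25.3% of all genes (11.4% higher and 13.9% lower). Among members with at least 5 CPM, 9 of 27 did not overlap, against 6.84% of all genes. The medians of the log2 difference were -0.15 over the members tested and -0.02 over all genes. Without male 3 the median over members was 0.03, and without female 3 it was -0.25. Type II cadherins were lower in 7 of 10 cases and higher in 2.

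Pcdh7, Pcdh8 and Pcdh19 had the largest differences toward cluster 6. Of the delta-1 members 2 were higher and 0 lower of 3 tested, and of the delta-2 members 2 were higher and 2 lower of 5, Pcdh17 (log2 difference -0.57) and Pcdh10 (-0.32) being the lower ones. Pcdh7 stood at 99.1, 145 and 193 CPM against 22.2, 30.7 and 46.1 CPM in spiny-like nuclei (log2 difference 2.18, SE 0.08, adjusted p = 3.67e-18). Pcdh19 stood at 39.4, 66.8 and 89.4 CPM against 21.8, 24.5 and 31.3 (1.35, SE 0.10, adjusted p = 4.33e-12). Both were higher in each library, with no overlap. Pcdh8, an activity-regulated delta-2 member, was also called (2.14, SE 0.28), with overlapping values of 1.65, 5.26 and 20.6 CPM against 1.04, 1.40 and 2.52. Cdh11 had 367, 504 and 624 CPM against 232, 272 and 342 (log2 difference 0.83, SE 0.05). Pcdh15 (0.79) and Pcdh9 (0.73) followed.

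Lower in cluster 6 were mostly classical cadherins. Cdh2 stood at 148, 170 and 210 CPM against 341, 351 and 386 (log2 difference -1.09, SE 0.06, adjusted p = 5.12e-15). Cdh7 stood at 34.3, 47.5 and 73.8 CPM against 103, 107 and 142 (-1.14, SE 0.07, adjusted p = 3.11e-13). Cdh8 stood at 236, 357 and 551 CPM against 563, 635 and 896 (-0.85, SE 0.05). None of these 3 overlapped. Cdh6 (log2 difference -1.23), Cdh13 (-0.67) and Cdh12 (-0.72) were also lower, Cdh6 and Cdh13 without overlap. Among members with at least 1000 UMIs, 5 did not pass: Cdh20, Pcdh20, Pcdhb10, Pcdhgc3 and Pcdh1, with intervals from -0.63 to 0.38.

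Sst/Npy interneuron-like nuclei (404) differed from spiny-like nuclei by larger steps. Of 27 members tested, 18 passed, 9 in each direction, beside 36.6% of all genes (19.0% higher and 17.6% lower). Among those with at least 5 CPM, 10 of 28 did not overlap, against 15.3% of all genes. The medians were 0.03 over members and 0.04 over all genes, and with no filter on low counts -0.17 and -0.26. With single libraries left out, the median over members ran from -0.11 (without male 3) to 0.05 (without female 1). These interneurons release somatostatin and neuropeptide Y, and the class is small, so single libraries rest on few UMIs.

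The delta-2 protocadherin Pcdh18 stood at 43.2, 74.8 and 129 CPM in Sst/Npy interneuron-like nuclei and 2.65, 3.18 and 5.55 CPM in spiny-like nuclei (log2 difference 4.28, SE 0.23, adjusted p = 2.31e-20). Pcdh15 stood at 361, 474 and 508 CPM against 39.9, 45.6 and 55.4 (3.16, SE 0.11, adjusted p = 7.37e-28). Cdh13 stood at 425, 720 and 824 CPM against 184, 206 and 224 (1.6, SE 0.11). Each of these was apart in all libraries, as were Pcdh7 (log2 difference 2.06), Cdh4 (1.79) and Cdh18 (1.15). Lower were Cdh6, with 0, 6.73 and 25.8 CPM against 26.5, 29.5 and 36.2 (-2.29, SE 0.34, adjusted p = 2.32e-07). The library at 0 was female 2, where a count of 0 allows up to 34.3 CPM, which reaches into the spiny-like range. Pcdh17, an axon-linked delta-2 member, had 53.6, 106 and 194 CPM against 190, 222 and 318 (-1.14, SE 0.14). Cdh7 (-1.24), Cdh8 (-0.85), Cdh2 (-0.62) and Pcdha13 (-0.49) were lower as well. The members with at least 1000 UMIs that did not pass were 7: Cdh9, Cdh22, Pcdh20, Pcdh9, Pcdhb10, Pcdhgc3 and Pcdh1, with intervals from -1.92 (Pcdh20) to 0.65.

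A further cluster, number 14 (883 nuclei), led by Il1rapl2, Egfr and Kit, had 2 of the 4 Pvalb/Pthlh markers and was left without a name. Between Sst/Npy interneuron-like nuclei and cluster 14, 13 of 19 members tested passed, 7 higher in the former and 6 lower, beside 22.2% of all genes (9.71% higher and 12.5% lower). Here 5 of 27 members with at least 5 CPM did not overlap, against 5.18% of all genes. The medians were 0.22 over members and 0.00 over all genes.

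Cdh4 stood at 70.9, 146 and 172 CPM in Sst/Npy interneuron-like nuclei and 14.3, 20.7 and 39.1 in cluster 14 (log2 difference 2.50, SE 0.17, adjusted p = 6.5e-10). Cdh11 stood at 509, 683 and 863 against 139, 224 and 296 CPM (1.56, SE 0.13, adjusted p = 1.56e-08). Cdh18 had 342, 424 and 493 CPM against 91.4, 141 and 185 (1.47, SE 0.15). All 3 were apart in all libraries. Pcdh18 was higher (3.76, SE 0.29), with 0, 4.11 and 7.13 CPM in cluster 14, where the library at 0 (female 1) allows up to 10.7. Pcdh7 (1.82) and Cdh10 (0.55) overlapped. Cdh20 went the other way, with 23.5, 33.2 and 68.6 CPM against 75.2, 158 and 196 in cluster 14 (-1.92, SE 0.17, adjusted p = 2.66e-08), without overlap. Cdh12 (-1.35), Cdh7 (-0.61), Cdh13 (-0.47), Pcdh17 (-0.45) and Cdh2 (-0.44) were lower with overlap, and the Cdh13 difference was -0.04 in set A and -0.64 in set B. The calls of Cdh7, Pcdh17 and Cdh2 were lost in DESeq2 and with single libraries left out. Those were female 3 and male 1 for Cdh7 (adjusted p = 0.194 and 0.0983) and, for Pcdh17, each library but female 3 (0.0689 to 0.100). For Cdh2 they were female 3, male 1 and male 3 (0.0617, 0.0700 and 0.0502). Not called among members with at least 1000 UMIs were Cdh9, Pcdh10, Pcdh19, Pcdha13, Pcdhgc3 and Pcdh15, with intervals from -0.74 (Pcdh19) to 0.93 (Cdh9).

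**Figure D3:**
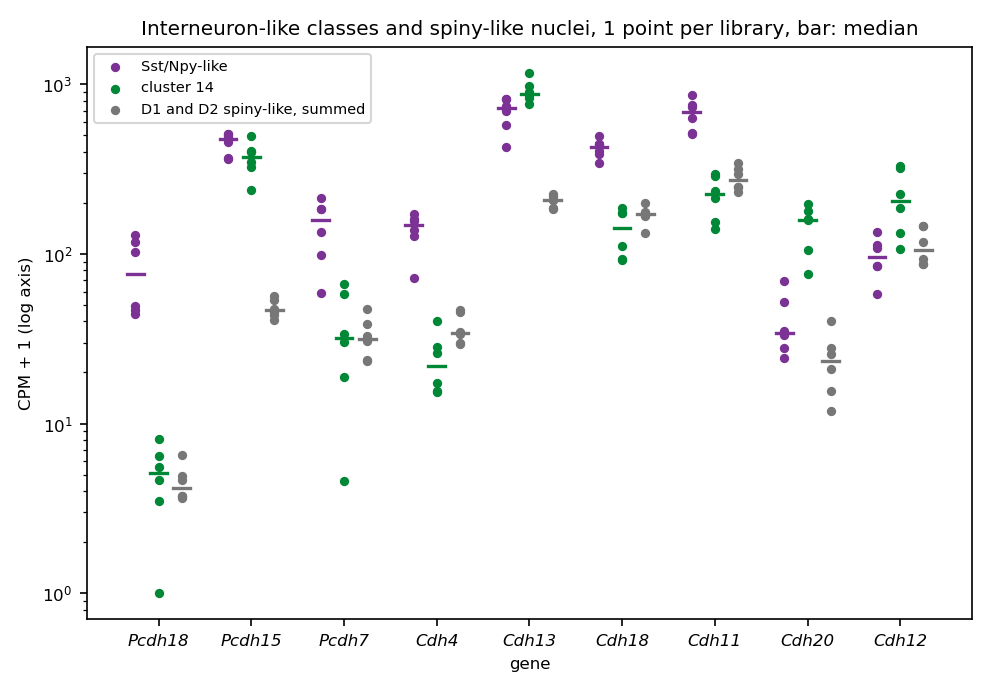
CPM + 1 (log axis) of 9 members in Sst/Npy interneuron-like nuclei, cluster 14 and the summed spiny-like nuclei, one point per library with a bar at the median. Pcdh18 and Cdh4 sit highest in Sst/Npy interneuron-like nuclei (medians 74.8 and 146 CPM), and Cdh20 in cluster 14 (median 158 CPM).

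Spiny-like nuclei against astrocyte-like nuclei (2472) showed the largest share of all genes called, 65.0% (32.3% higher and 32.8% lower), and 21 of 30 members tested passed, 11 higher in spiny-like nuclei and 10 lower. Of 29 members with at least 5 CPM, 16 did not overlap, against 36.6% of all genes. The medians were 0.09 over the members tested and -0.01 over all genes. With no filter on low counts the direction turned, to -0.27 over 66 members (15 higher and 16 lower) and 0.27 over all genes. The share of members called, 21 of 30, was near that of all genes.

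Cdh8 stood at 563, 635 and 896 CPM in spiny-like and 17.5, 28.6 and 136 CPM in astrocyte-like nuclei (log2 difference 4.07, SE 0.29, adjusted p = 5.71e-08). Pcdha13 stood at 484, 552 and 633 CPM against 34.5, 44.3 and 150 (3.25, SE 0.22, adjusted p = 4.57e-08). Cdh9 stood at 144, 184 and 248 CPM against 1.35, 11.6 and 41.6 (3.63, SE 0.30). None overlapped, and the same held for Cdh7 (3.17), Cdh12 (2.26) and Cdh13 (1.79). Higher in astrocyte-like nuclei was Cdh10, with 368, 433 and 464 CPM in spiny-like and 925, 1221 and 1356 in astrocyte-like nuclei (-1.38, SE 0.09, adjusted p = 2.14e-08). Cdh20 had 10.8, 22.4 and 39.1 CPM against 96.3, 174 and 194 (-2.89, SE 0.27). Pcdh7 (-1.47) and Pcdh9 (-1.17) did not overlap either, while the gamma member Pcdhga7 did (-1.21). Cdh23 had 0.588, 1.20 and 2.53 CPM against 10.8, 96.3 and 169 (log2 difference -5.46, SE 0.30). The members with at least 1000 UMIs that did not pass were Pcdh10, Cdh4, Pcdh19, Pcdh20, Pcdhb10 and Cdh11, with intervals from -0.48 to 0.88.

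Markers of spiny neurons had UMIs in the glial classes and interneuron classes too. All 7 were detected in each, and summed to 717 to 1345 CPM in astrocyte-like nuclei (1335 to 1345 in set A, 717 to 1135 in set B) against 5572 to 8608 in spiny-like nuclei. They summed to 576 to 1327 CPM in OPC-like, 175 to 2306 in mature oligodendrocyte-like, 1044 to 1821 in Sst/Npy interneuron-like nuclei and 439 to 1455 in cluster 14. The striatal phosphodiesterase gene Pde10a had a median of 2878 CPM in D1 spiny-like nuclei and 42.3 CPM in astrocyte-like nuclei. The part of this RNA in the low values of Cdh8, Cdh9 and Pcdha13 in glia was not tested.

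OPC-like (896) and mature oligodendrocyte-like nuclei (3478), the start and end of the oligodendrocyte lineage, differed in members that were mostly higher in OPC-like nuclei. Of 22 members tested, 18 passed, 16 higher in OPC-like nuclei and 2 lower, beside 48.8% of all genes (26.0% higher and 22.8% lower). Of 34 members with at least 5 CPM, 16 did not overlap, against 18.7% of all genes. The median log2 difference was 1.55 over the members tested and -0.00 over all genes, and with no filter on low counts 0.79 over 65 members and -0.06 over all genes. All 3 type I and all 3 delta-2 members tested were higher, as were 4 of 8 type II members. The filter on low counts kept members partly through their level in OPC-like nuclei, so these counts describe only the members that passed it.

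Pcdh15 stood at 1775, 2355 and 2676 CPM in OPC-like and 10.5, 18.3 and 35.7 CPM in mature oligodendrocyte-like nuclei (log2 difference 6.76, SE 0.20, adjusted p = 8.29e-11). Cdh3 (P-cadherin, type I) stood at 28.9, 59.8 and 77.7 CPM against 1.32, 3.67 and 5.50 (3.99, SE 0.29, adjusted p = 1.03e-07). Cdh10 stood at 760, 840 and 917 CPM against 26.4, 52.2 and 152 (3.73, SE 0.27). Cdh13 (3.40), Cdh18 (2.92) and Pcdh7 (2.49) followed, and none of these 6 overlapped. Cdh19 went the other way, with 55.0, 76.1 and 102 CPM against 226, 304 and 369 (-2.18, SE 0.16, adjusted p = 1.46e-07), without overlap. Pcdh9 was lower in OPC-like nuclei in 6 of 6 libraries, with overlapping ranges of 71.6, 107 and 188 and of 134, 232 and 237 CPM (-1.06, SE 0.14, adjusted p = 2.73e-05). Not called were Cdh6 (-0.14 to 0.44), Cdh12 (0.11 to 1.11), Pcdh1 (-0.51 to 1.05) and Cdh8 (0.08 to 0.80).

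The promoter windows of Pcdh15 and Cdh19 are printed because these 2 genes moved most in opposite directions along the lineage. They come from RefSeq on the GRCr8 build, and run from 250 bases before to 50 after the start site on the minus strand of each, at chr20:14824749-14825048 and chr13:28533704-28534003. Capitals mark ACAAAG or ACAATG on either strand, the core letters bound by SOX factors, which direct the oligodendrocyte lineage.
Pcdh15: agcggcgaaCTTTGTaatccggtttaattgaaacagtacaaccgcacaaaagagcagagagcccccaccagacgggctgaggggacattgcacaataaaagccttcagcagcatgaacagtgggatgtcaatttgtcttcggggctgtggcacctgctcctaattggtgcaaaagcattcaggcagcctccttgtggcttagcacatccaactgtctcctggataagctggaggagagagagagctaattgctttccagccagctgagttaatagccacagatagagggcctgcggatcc
Cdh19: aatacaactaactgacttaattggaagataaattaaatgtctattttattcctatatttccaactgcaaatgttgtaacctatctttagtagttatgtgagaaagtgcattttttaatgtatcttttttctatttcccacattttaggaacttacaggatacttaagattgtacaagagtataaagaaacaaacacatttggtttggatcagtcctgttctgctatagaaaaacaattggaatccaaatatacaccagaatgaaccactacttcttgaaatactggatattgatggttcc
The Pcdh15 window has 51.3% GC and 7 CpG, and holds 1 match, ACAAAG read on the other strand. The Cdh19 window has 30% GC, 0 CpG and no match. Of 33469 rat promoter windows of the same length, 18.8% hold ACAAAG, 13.2% ACAATG and 29.1% either, with a median of 51.7% GC and 7 CpG. The Cdh19 window thus had a GC content well under the median, and the match in Pcdh15 is a common one.

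Astrocyte-like and OPC-like nuclei differed in 18 of 21 members tested, 5 higher in astrocyte-like nuclei and 13 lower, beside 45.5% of all genes (24.9% higher and 20.6% lower). Of 34 members with at least 5 CPM, 9 did not overlap, against 19.0% of all genes. The median log2 difference was -0.68 over the members that passed the filter on low counts and 0.06 over all genes. With no such filter it was 0.03 over 65 members and 0.06 over all genes. Type II members were lower in 6 of 8 cases.

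Pcdh15 stood at 12.8, 21.5 and 27.0 CPM in astrocyte-like nuclei and at 1775, 2355 and 2676 in OPC-like nuclei (log2 difference -6.72, SE 0.16, adjusted p = 6.57e-16). Cdh13 stood at 26.3, 61.7 and 94.3 CPM against 923, 1089 and 1193 (-3.98, SE 0.15, adjusted p = 1.48e-13). Both were lower in astrocyte-like nuclei in every library. Cdh3 was lower (-4.38, SE 0.39), with 0 UMIs in 2 libraries of astrocyte-like nuclei, where counts of 0 allow up to 8.75 CPM (female 2) and 2.02 CPM (male 1). Cdh19 was lower (-2.33, SE 0.25), with 0 UMIs in female 2 under the same limit of 8.75 CPM. Pcdha13 (-2.84) and Cdh18 (-2.22) were lower without overlap. Higher in astrocyte-like nuclei were Cdh10, without overlap (0.61, SE 0.09, adjusted p = 1.35e-05), Cdh2 with 418, 537 and 640 CPM against 263, 373 and 428 (0.71, SE 0.11), Pcdhgc3 (0.43), Cdh4 (1.37) and Cdh23. The Cdh4 difference was 2.04 in set A and 0.30 in set B. Not called were Pcdh10, Pcdh7 and Cdh20, with intervals from -0.18 to 0.63.

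**Figure D4:**
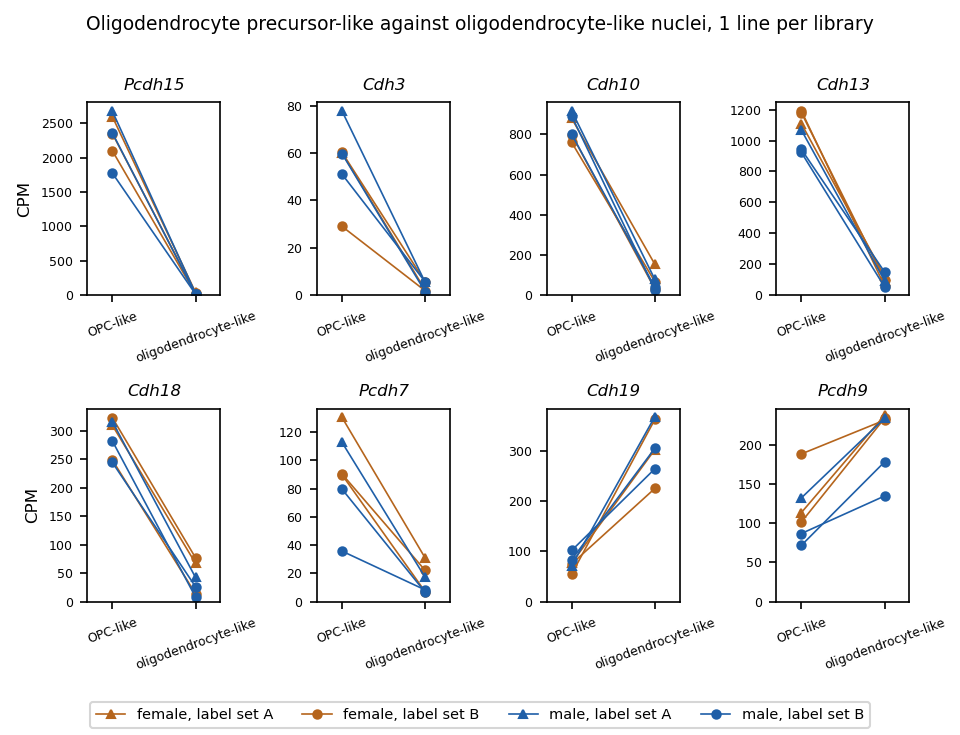
CPM (linear axes from 0, one panel per gene) of the 8 named members in OPC-like and mature oligodendrocyte-like nuclei, with a line for each of the 6 libraries. Pcdh15 (median 2355 against 18.3 CPM) and Cdh3 (59.8 against 3.67) are higher in OPC-like than in mature oligodendrocyte-like nuclei, and Cdh19 (76.1 against 304) is lower.

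Cdh23, a long cadherin of the tip links of hair cells, was highest in microglia-like nuclei (437 nuclei in 5 libraries) and followed the label sets. It stood at 88.7 and 106 CPM in microglia-like nuclei of set A, and at 1055, 1131 and 1311 CPM in those of set B. The sets did not overlap, and set B was 12 times higher. In astrocyte-like nuclei it stood at 10.8 and 11.1 CPM in set A and 75.9 to 169 CPM in set B, an 11.1-fold step that ranked 46 of 11865 genes by size. In OPC-like nuclei the sets had 11.7 to 15.6 and 37.6 to 124 CPM, and in spiny-like nuclei all libraries lay between 0.588 and 2.53 CPM. The Cdh23 difference between astrocyte-like and OPC-like nuclei (0.62, SE 0.20, adjusted p = 0.0153) was -0.32 in set A and 0.71 in set B, higher in 4 of 6 libraries. It did not pass without male 2 (adjusted p = 0.0671) or male 3 (0.0760), nor in DESeq2. It was the only member called in a class comparison whose sign differed between the sets. That between spiny-like and astrocyte-like nuclei was -4.18 in set A and -6.03 in set B. The sets also differ in nuclei per library, mitochondrial share and glutamatergic-like nuclei, as given above, and the part of each in this step cannot be told apart.

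**Figure D5:**
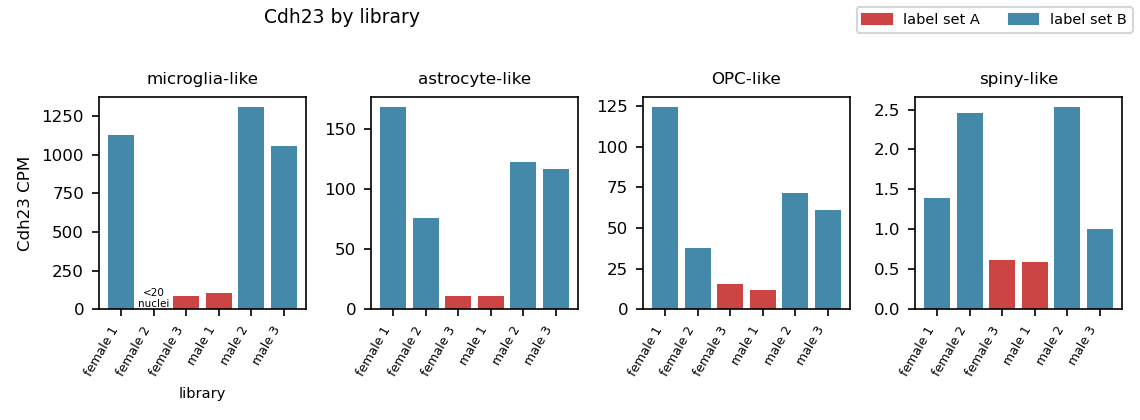
CPM of Cdh23 by library (bars from 0) in microglia-like, astrocyte-like, OPC-like and spiny-like nuclei, each panel on its own axis, with label sets A and B in different colours. In microglia-like nuclei the set A libraries lie at 88.7 and 106 CPM and the set B libraries at 1055 to 1311 CPM.

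Set differences were wide among other members too, as among all genes. In spiny-like nuclei 19 of 26 members had set A and set B ranges apart, against 55.6% of all genes. In all nuclei together it was 21 of 30 against 52.4%, in astrocyte-like nuclei 14 of 35 against 39.3%, in mature oligodendrocyte-like nuclei 10 of 26 against 37.4% and in OPC-like nuclei 15 of 36 against 27.8%. In microglia-like nuclei it was 13 of 25 against 32.5%, in cluster 4 15 of 30 against 40.9%, in cluster 6 13 of 27 against 40.7% and in Sst/Npy interneuron-like nuclei 10 of 31 against 25.1%. Apart from Cdh23, every member called in a class comparison had the same sign in both sets.

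Among members with few UMIs, Cdh5 and Cdh3 had sharp profiles. Cdh5 (VE-cadherin of vessel walls) stood at 53.8, 60.6 and 61.3 CPM in endothelial and mural-like nuclei (414 nuclei, 3 libraries), 17.0 times the next class, cluster 10, with 3.44. Cdh3 followed in OPC-like nuclei with a next class, cholinergic-like, of 11.8. Pcdh18 and Pcdh8 were less sharp, as the libraries of their top and next classes overlapped. Pcdh18 was highest in Sst/Npy interneuron-like nuclei, followed by 36.6 in endothelial and mural-like nuclei. Pcdh8 had a median of 15.9 CPM in cluster 9, and its mean was 18.9 there and 17.9 in cluster 12.

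Partners and relatives of the members, from lists written for these comparisons, moved in both directions. Of the 10 catenins and linkers, 9 were in the tables. Between D1 and D2 spiny-like nuclei 0 were higher and 3 lower of 9 tested, in cluster 6 against spiny-like nuclei 2 and 1 of 9, in Sst/Npy interneuron-like against spiny-like nuclei 4 and 1 of 9, and against cluster 14 1 and 3 of 7. In spiny-like against astrocyte-like nuclei it was 2 and 5 of 9, in OPC-like against mature oligodendrocyte-like nuclei 3 and 4 of 8, and in astrocyte-like against OPC-like nuclei 4 and 2 of 8. Vcl (vinculin, an actin linker) had a log2 difference of 1.66 (SE 0.06) in cluster 6 and Ctnnd2, a neuronal catenin, 3.44 (SE 0.29) in OPC-like over mature oligodendrocyte-like nuclei. Ctnna1, an alpha catenin, was lower there (log2 difference -2.35, SE 0.18). The shares of all genes called in these comparisons were, in the same order, 16.0%, 25.3%, 36.6%, 22.2%, 65.0%, 48.8% and 45.5%. Many of the lists' counts lie near these shares, and nothing particular to a list is read from them.

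The other large cadherins (Fat, Dchs and Celsr families, calsyntenins and others, 15 of 16 in the tables) were higher in 3 and lower in 1 of 11 tested between D1 and D2 spiny-like nuclei, with Fat3 at 0.60 (SE 0.03). In the other comparisons, in the order above, the counts were 1 and 1 of 11, 6 and 3 of 11, 2 and 2 of 8, 7 and 4 of 12, 5 and 0 of 6, and 2 and 4 of 7. Fat4, a planar polarity cadherin, was higher in Sst/Npy interneuron-like than spiny-like nuclei (5.70, SE 0.19), and Celsr1 was higher in astrocyte-like than OPC-like nuclei (6.89, SE 0.41). The 13 genes of the WAVE complex and of kinases that bind protocadherin tails gave 1 and 2, 1 and 4, 1 and 6, 1 and 1 of 11, 3 and 5, 5 and 0, and 7 and 3, each of 12 but for the fourth. Genes that control clustered protocadherins (11, such as Ctcf and cohesin genes) gave 0 and 3 of 10, 2 and 0 of 10, 2 and 0 of 11, 0 and 0 of 9, 1 and 5 of 10, 1 and 3 of 10, and 0 and 1 of 10. Proteases that cleave cadherins (8) gave 0 and 0 of 8, 1 and 0 of 8, 1 and 1 of 8, 0 and 0 of 2, 0 and 4 of 8, 0 and 4 of 6, and 2 and 0 of 5. In OPC-like against mature oligodendrocyte-like nuclei, the gamma-secretase gene Psen2 was lower (log2 difference -2.62), as was the sheddase gene Adam10 (-1.57).

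No member differed between females and males past the threshold. Over all nuclei, with label set as a term, 0 of 57 members tested were called by edgeR's quasi-likelihood test and 1 had an unadjusted p under 0.05, beside 7 called (0.0432%) and 7.48% with an unadjusted p under 0.05 among all 16204 genes. DESeq2 called 0 members. In simulated data with a fixed spread the edgeR fit recovered 45 of 100 log2 changes of 1, so differences of that size can go without a call. The members' own intervals are given at the end of this paragraph. The smallest p was that of Pcdh9, with 57.0, 58.9 and 66.6 CPM in females 1 to 3 and 64.7, 43.5 and 39.7 CPM in males 1 to 3. The female and male ranges overlapped (female minus male log2 difference 0.39, SE 0.15, edgeR, adjusted p = 0.636), and the difference was 0.04 in set A and 0.48 in set B. Pcdhgb6 (0.835, 0.464 and 0.567 CPM in females, 0.820, 1.32 and 1.43 in males) and Pcdh8 (4.79, 3.90 and 3.03 in females, 3.85, 5.41 and 10.2 in males) came next, and neither passed. For the 26 members with at least 1000 UMIs the largest difference was 0.39 and the approximate 95% intervals reached 0.32 (median) to 0.59 (widest) to either side.

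Within classes, 304 tests of members in 14 classes gave 0 calls by edgeR, beside 0.0858% of 118831 tests of all genes. An unadjusted p under 0.05 was reached in 20 of the 304 (6.58%), against 5.51% of all tests, and DESeq2 called 0. The 2 smallest p were those of Cdh11, a type II cadherin. In cluster 14 it stood at 288, 235 and 296 CPM in females and 214, 139 and 153 in males (log2 difference 0.66, SE 0.19, edgeR, adjusted p = 0.928). In cluster 20 it had 702, 516 and 463 CPM in females and 395, 311 and 241 in males (0.85, SE 0.24, edgeR, adjusted p = 0.225). This difference was 0.23 within set A and 1.14 within set B. It passed when female 2, female 3 or male 1 was left out (adjusted p = 0.0430, 0.0366 and 0.0389). These 2 were named after their values were seen, and the sexes did not overlap in either. Whether the difference between D1 and D2 spiny-like nuclei depended on sex was tested by an interaction term. Of 33 members tested, 0 were called and 0 had an unadjusted p under 0.05, beside 0.0% called among 12666 genes, 524 of them with an unadjusted p under 0.05. DESeq2 called 0 members as well. In simulated data with a fixed spread the interaction fit recovered 6 of 100 log2 changes of 1, so the lack of calls alone says little. The members' own approximate intervals say more. For tested members with at least 1000 UMIs they lay between -0.61 (Pcdh20) and 0.91 (Pcdhb10), so none reached a log2 difference of 1. Those of Cdh2 (-0.13 to 0.14) and Cdh8 (-0.20 to 0.09) were narrow. Some members with fewer UMIs had intervals reaching past that size, such as Cdh1 (-2.15 to 0.21) and Pcdhb21 (-0.40 to 1.94). Cdh4 had the smallest p, with a log2 difference between the sexes of 0.29 (SE 0.15).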

How the data were processed

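The deposited values are whole UMI counts per gene and barcode, with no normalization, made with Cell Ranger 4.0.0 per the file headers. The submitters' processing notes name the rat build rn6. The annotation release and the treatment of intron reads are not given in the sources used here. Members and gene lists were chosen with earlier results of these data known.

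Barcodes were kept with at least 500 UMIs, 300 genes and under 5% mitochondrial UMIs. Doublets were scored with Scrublet in scanpy 1.11.5. Its own thresholds marked under 0.5% of nuclei in 5 of 6 libraries and 39.2% in female 3, so the highest scores were removed at 0.8% per 1000 nuclei, which took 2.30% to 13.2%. Nuclei were clustered (3000 variable genes, 30 components, 20 neighbours, Leiden resolution 1) without members, sex-linked and mitochondrial genes. A cluster was named "-like" when at least 3 of its class's markers were at least 2-fold higher. Of the markers, 6 were not among the features.

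Counts were summed per library and class with at least 20 nuclei. Classes were compared with edgeR 4.0.16 (quasi-likelihood, TMM, filterByExpr, library as block, Benjamini-Hochberg over all genes), with DESeq2 1.42.0 as an alternative. Sex fits had label set as a term. A log2 difference is first class minus second. Upper limits for a count of 0 rest on 3 counts and cover counting error only. The fits were tested on simulated data with a fixed spread. Of 100 genes with a log2 change of 1, the fit of D1 against D2 spiny-like nuclei recovered 82. That of OPC-like against mature oligodendrocyte-like nuclei recovered 52, sex over all nuclei 45 and the interaction 6. At a log2 change of 2 these were 98, 84, 90 and 75.

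Named were, per class comparison, up to 6 called members with the largest change in each direction, and members with at least 1000 UMIs that did not pass. For sex, the 3 members of smallest p were named. No 2 libraries were copies (chi-square per degree of freedom at least 19.1).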

Additional observations from a re-analysis of the deposited data

How the results depend on the processing

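Every count of members called stayed within 1.5 times its value under most alternatives tried: DESeq2, no filter on low counts, nuclei with at least 1000 UMIs, doublets kept, clustering at resolution 2 and, chosen after seeing the data, label set B alone. The exceptions follow. For D1 against D2 spiny-like nuclei 15 members became 7 with all classes in 1 fit. With the replicate number as a block in place of the library, they became 3, and the replicate block also turned 20 into 11 in cluster 6 against spiny-like nuclei and 13 into 7 in Sst/Npy interneuron-like nuclei against cluster 14. Females and males of the same number had correlations of their deviations of -0.782, 0.267 and -0.718 over 9913 genes. Every pair across the label sets was negative and every pair within a set positive. These values therefore cannot tell whether the numbers pair the libraries. For sex by class, 0 became 2 with no filter on low counts (Cdh11 in cluster 20 with adjusted p = 0.0464, edgeR, and Pcdh17 in mature oligodendrocyte-like nuclei with 0.0373). Among all genes, D1 against D2 spiny-like nuclei gave 1898 calls in edgeR and 1084 in DESeq2. Leaving out each library in turn gave 14 to 16 members for D1 against D2, 17 to 20 for cluster 6, 14 to 18 for Sst/Npy against spiny-like nuclei, 9 to 12 against cluster 14, 19 to 22 for spiny-like against astrocyte-like nuclei, 17 to 18 for OPC-like against mature oligodendrocyte-like and 17 to 20 for astrocyte-like against OPC-like nuclei. For sex by class it gave 0 to 2, and 0 for sex in all nuclei and for the interaction. Cdh11 in cluster 20 passed without female 2 (adjusted p = 0.0430), female 3 (0.0366) or male 1 (0.0389), and in mature oligodendrocyte-like nuclei Pcdh17 (0.0331) and Cdh8 (0.0260) passed without female 1. For the 82 results of named genes, 1085 of 1138 alternatives kept the call and direction, 53 lost the call, and 0 changed direction. Of the 53, 19 came from the replicate block, 8 from all classes in 1 fit and 7 from DESeq2. Label set B alone gave 14, 14, 16, 11, 19, 17 and 16 members in the 7 class comparisons. The causes were not tested.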

Other observations

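Members were also compared by how their levels ran over 14 classes with all 6 libraries, as a description with no test. The Pearson correlation of log2 mean CPM was highest between Cdh13 and Cdh18 (0.86), Cdh9 and Cdh7 (0.83), Cdh8 and Cdh7 (0.82) and Cdh9 and Cdh12 (0.82). Cdh19 was most like Pcdh9 (0.68), which among the 26 members with at least 1000 UMIs was the other one highest in mature oligodendrocyte-like nuclei, and least like Cdh22 (-0.85). Cdh9 and Pcdh9 ran in opposite directions (-0.79). The classes share libraries, so these points are not independent.

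Several type II cadherins lie next to each other in the RefSeq annotation of the GRCr8 build. Of the neighbours with enough UMIs, Cdh7 and Cdh19 ran in opposite directions over the 14 classes (-0.70), Cdh12 and Cdh18 ran alike (0.67) and Cdh10 and Cdh12 had a weak correlation (0.20). Neighbouring members thus had profiles from alike to opposite.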
